A study of Mus musculus with 4 samples.

Results

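The regions described here are gene promoters at which all 4 libraries of the series had an open-chromatin peak. Peaks of the 4 deposited lists that shared 1 base or more were joined, giving 357556 regions on chromosomes 1 to 19 and X, of which 13606 held a peak from every list. Of these, 8764 (64.4%) had their midpoint within 3 kb of the 5′ end of a protein-coding gene and are called promoter regions, and the other 4842 are called distal regions. The promoter regions lay near 9439 of the 21755 protein-coding genes (43.4%), and they made up 2.45% of all merged regions. They were selected on the presence of a peak in every list, so that presence is not a finding.

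The libraries came from 4 untreated mouse cell lines, with 1 library per line, cultured in RPMI1640 with 10% FBS. All lines derived from lung tumors of the RP model, in which loxP-flanked Rb1 and Trp53 (Rb1 L/L, Trp53 L/L) are deleted by intratracheal Ad-CMV-Cre, on a mixed C57Bl/6, Balb-c and S129 background. SMC lines 1 and 2 are small cell lung cancer metastasizing cells, sorted as NCAM hi CD44 lo/- and growing in suspension, and non-SMC lines 1 and 2 were sorted as NCAM lo CD44 hi and grew attached. The CMV promoter of the virus does not restrict Cre to 1 lung cell type, and whether a line is a single clone is not given in the sources used here. Below, 4 values in a row are always in the order SMC line 1, SMC line 2, non-SMC line 1, non-SMC line 2.

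ATAC-seq reads out where a transposase can insert into DNA, and an active or poised promoter usually appears as a nucleosome-depleted stretch just upstream of the transcription start site (TSS). Promoters of broadly used genes tend to lie in CpG islands and to carry short sites for factors found in most cells: GC boxes for Sp1 and Sp3, ETS sites for GABP, CCAAT boxes for the NF-Y trimer, and sites for NRF1 and YY1. Open chromatin away from promoters varies more between cell types and more often carries sites for factors such as AP-1, TEAD and CTCF.

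Promoter sequences with such a site close to the summits of all 4 libraries were chosen among the tallest regions, the reference genes and the genes and factors of interest to the study, and 8 are shown to give the form of these promoters. Each is the stretch of 150 bases that ends 1 base before the TSS, on the strand of the gene, 5′ to 3′, from GRCm38, the assembly of mm10, and overlaps no annotated exon. Capitals mark every GC box (GGGCGGG), ETS site (CCGGAAG), NRF1 site (GCATGCGC), NF-Y site (CCAATNAG) and YY1 site (AAGATGGCG) on either strand. The GC box and the ETS site of Sp3 overlap each other.
Pitrm1, chr13:6547999-6548148, plus strand: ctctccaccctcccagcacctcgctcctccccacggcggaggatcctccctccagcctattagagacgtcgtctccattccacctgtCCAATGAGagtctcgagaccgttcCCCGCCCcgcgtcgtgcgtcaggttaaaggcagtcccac
Edem3, chr1:151755221-151755370, plus strand: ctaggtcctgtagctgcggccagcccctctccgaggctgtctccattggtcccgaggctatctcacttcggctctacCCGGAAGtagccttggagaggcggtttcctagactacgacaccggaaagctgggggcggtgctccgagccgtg
Gapdh, chr6:125166468-125166617, minus strand: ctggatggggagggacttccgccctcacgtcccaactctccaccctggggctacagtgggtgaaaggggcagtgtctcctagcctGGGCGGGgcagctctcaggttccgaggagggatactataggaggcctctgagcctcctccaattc
Hprt, chrX:52987987-52988136, plus strand: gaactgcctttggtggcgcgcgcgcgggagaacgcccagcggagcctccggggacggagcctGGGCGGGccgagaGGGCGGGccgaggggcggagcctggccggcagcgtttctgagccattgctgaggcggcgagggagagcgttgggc
Usf1, chr1:171411163-171411312, plus strand: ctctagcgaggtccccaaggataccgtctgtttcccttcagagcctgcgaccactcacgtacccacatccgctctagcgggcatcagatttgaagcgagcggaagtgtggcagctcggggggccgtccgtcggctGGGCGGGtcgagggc
E2f1, chr2:154569893-154570042, minus strand: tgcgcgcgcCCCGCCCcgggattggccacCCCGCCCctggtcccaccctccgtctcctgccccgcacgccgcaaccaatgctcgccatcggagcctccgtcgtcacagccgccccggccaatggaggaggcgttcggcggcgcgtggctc
Yy1, chr12:108792823-108792972, plus strand: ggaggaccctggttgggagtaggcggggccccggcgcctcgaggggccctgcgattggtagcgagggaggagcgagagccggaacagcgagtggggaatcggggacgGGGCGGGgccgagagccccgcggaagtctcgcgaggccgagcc
Sp3, chr2:72980447-72980596, minus strand: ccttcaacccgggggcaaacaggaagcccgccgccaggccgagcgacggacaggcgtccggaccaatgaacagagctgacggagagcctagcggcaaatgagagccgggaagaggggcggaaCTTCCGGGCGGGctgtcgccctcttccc

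The site nearest the summits was the NF-Y site of Pitrm1, at a median distance of 16.5 bp from the summits of the 4 libraries. The GC box of Gapdh lay 33.5 bp from them, that of Yy1 49 bp and the ETS site of Edem3 75 bp. No sequence read of these lines was used, so the letters are those of the reference genome.

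The peak lists held 91118, 154039, 115909 and 128788 peaks. The height of a peak is its fold enrichment, the pileup of reads at the summit over the local background of the same library, and the pileup and background were recovered from it and its p-value. The lowest background, which follows the depth of a library, was lowest in SMC line 1 (0.456) and highest in SMC line 2 (1.54), and the median pileup at the promoter regions was 10, 22, 33 and 14. Values of different libraries were therefore not compared as they stand. Each region was given instead a height rank, the percentile of the fold enrichment of its highest peak among all 13606 regions of the same library. Since 4 libraries cannot go below p = 0.13 in a two-sided exact sign-flip permutation test, and 2 against 2 libraries cannot go below p = 0.33 in a two-sided exact permutation test, no difference below could pass a threshold of 0.05. The libraries are of separate lines, and the spread between them includes both the lines and the library preparation.

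Most promoter regions covered the TSS, and they were wider than the distal regions. A median region spanned 858 bp, with quartiles at 648 and 1092 bp and extremes of 154 and 2585 bp, against a median of 692 bp for distal regions. The TSS lay inside 6979 of the promoter regions (79.6%), and the midpoint of 7152 (81.6%) was within 500 bp of it. Counting upstream positions as negative, the median midpoint was at 68 bp, with quartiles at -90 and 255 bp. Median summits lay slightly upstream, at -4.5, -13, -11 and -6 bp. In absolute terms the summit was a median of 122, 109, 113 and 124 bp from the nearest TSS, and 43.6 to 47.5% of regions had it within 100 bp.

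**Figure D1:**
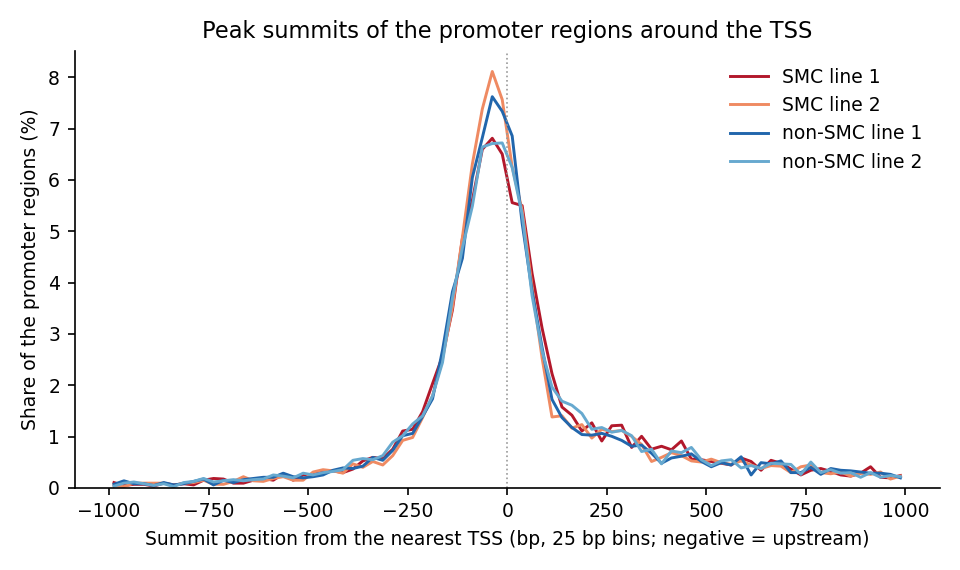
Position of the summit of the highest peak in each promoter region relative to the nearest protein-coding TSS, as the share of the 8764 regions per 25 bp bin from 1000 bp upstream (negative) to 1000 bp downstream, with 1 line per library. All 4 libraries peaked just upstream of the TSS and had a longer shoulder downstream.

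The summits of a promoter region spanned a median of 127 bp over the 4 libraries, with quartiles at 66 and 276 bp, and in 3618 regions (41.3%) they lay within 100 bp of each other, against 32.6% of distal regions. Between pairs of libraries the median distance was 47 bp for the non-SMC lines and 53 bp for the SMC lines. It was 50 to 66 bp between an SMC and a non-SMC line, so pairs across the types were about as close as pairs within a type. At distal regions it was 47 bp for the non-SMC lines, 58 bp for the SMC lines and 70.5 to 80 bp across the types. In 5962 promoter regions (68.0%) every list held exactly 1 peak.

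Peaks at the promoter regions stood higher than those at distal regions in each library. Their median fold enrichment was 5.95, 6.26, 7.91 and 6.66, where distal regions had 4.81, 4.73, 6.67 and 5.49. As height ranks, the promoter regions had medians of 56.0, 56.9, 54.2 and 54.9, and the distal regions 37.7, 36.7, 40.9 and 40.2. The difference was 16.7 ± 3.20 percentile points (SD, n = 4) and had the same sign in 4 of 4 libraries (exact sign-flip permutation test, p = 0.13, the smallest it can give). The peaks of a library within a promoter region also covered more bases, with medians of 476, 575.5, 718 and 561 bp against 314, 382, 513 and 391.5 bp, a difference of 183 ± 20.1 bp (SD, n = 4; exact sign-flip permutation test, p = 0.13). The very highest peaks were distal all the same: the maximum fold enrichment of a promoter region was 21 to 29 over the libraries, and that of a distal region 47.7 to 58.2.

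Under a stricter call fewer regions were shared. The highest peak reached a -log10 q of 5 in 54.2, 75.2, 89.3 and 67.8% of the promoter regions. The SMC mean was 64.7 ± 14.9% (SD, n = 2) and the non-SMC mean 78.5 ± 15.3% (SD, n = 2), a difference no larger than the spread between lines of 1 type (exact permutation test, p = 0.667). All 4 libraries passed at 3874 regions (44.2%), against 20% of distal regions. At q under 0.05 all 4 passed at 7450 regions (85.0%). The share passing moved with the pileup: it was lowest in SMC line 1, where the median pileup was 10, and highest in non-SMC line 1, where it was 33, and the part of depth in it was not tested.

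Height fell with distance from the TSS. The 2767 regions with a midpoint within 100 bp of the TSS had median height ranks of 63.1, 65.2, 63.6 and 63. Between 500 and 1000 bp the 889 regions had medians of 35.5, 35.4, 32.4 and 35.4, and the 216 regions between 2000 and 3000 bp had 32.7, 31.8, 33.9 and 35.6. The outer regions were thus no taller than the distal ones, whose medians were 36.7 to 40.9. The 3 kb limit fell in this flat part. Just inside it lay the regions of Slc2a3 (midpoint at -2992 bp), Cox7a2l (2991 bp) and Pqlc1 (2985 bp), with lowest ranks of 8.74, 49.5 and 51.3, and just outside it those nearest Ifna13 (3002 bp), Eif4enif1 (-3012 bp) and Stim2 (-3026 bp), with 32.4, 0.00367 and 7.47.

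The 10 regions with the highest lowest rank were all among the top 1% of every library. Map9, which encodes a microtubule-associated protein, had fold enrichments of 17.2, 17.1, 21 and 17.8. Dcbld2, a transmembrane receptor, had 14.9, 19.8, 20.7 and 19.6. Pja2, a ubiquitin ligase, had 19.5, 16.2, 18.7 and 16.8. Among the others, Sel1l, the adaptor of an ER ubiquitin ligase, had 15.2, 18.7, 18.7 and 18, and Edem3, which trims mannose from misfolded glycoproteins, had 14.6, 15.9, 19.2 and 18.1. The rest were Pitrm1 and Tpp2, which encode peptidases, Flrt3, Kpna1, and the region that Zfp654 shares with Cggbp1. No theme was tested for these 10. Kpna1 stood apart in shape, at chr16:35981615-35981816, where the region was 202 bp wide, lay 2965 bp downstream of the TSS and had all summits within 5 bp, while the other 9 had their midpoint within 420 bp of a TSS.

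The 5 widest regions were at Htr1b (2585 bp), Cnksr3 (2447 bp), Adgrl3 (2438 bp), Yod1 (2376 bp) and Wls (2354 bp). Their summits spread over 1596, 892, 1721, 1087 and 50 bp, so in all but Wls the libraries peaked at different places within 1 merged region. Htr1b, a serotonin receptor gene, had fold enrichments of 4.96, 5.85, 9.8 and 5.6, and Wls, which escorts WNT proteins to the cell surface, had 3.43, 5.91, 11.1 and 6.77.

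Sequence at the summits differed between promoter and distal regions, and this was not used to choose them. For each library, both strands of the 100 bp on either side of the summit were searched. All libraries were searched in the same regions of the same reference genome. Motif shares of a fixed set of regions therefore differ between libraries only through the summit position. Their SD, agreement in sign and p-value describe that position and not independent replicates of the sequence. At least 1 of the 5 promoter motifs spelled out above was present in 55.9 ± 1.71% of promoter regions (SD, n = 4) and 20.2 ± 0.643% of distal regions, a difference of 35.7 ± 1.43 percentage points in the same direction in 4 of 4 libraries (exact sign-flip permutation test, p = 0.13). GC boxes were in 39.4% against 13.3%, ETS sites in 14.9% against 3.86%, NF-Y sites in 9.84% against 3.91%, NRF1 sites in 3.97% against 1.21% and YY1 sites in 2.13% against 0.408%. GC content moved with these shares, at a median of 64.1% in promoter and 54.2% in distal windows. With distal regions weighted to the GC content of the promoter regions, the difference for the 5 motifs together fell to 15.3 ± 1.02 points (SD, n = 4). That of the GC box went from 26.1 to 6.91 points, of NRF1 from 2.75 to 1.57, of ETS from 11.1 to 8.03, of YY1 from 1.72 to 1.4 and of NF-Y from 5.94 to 5.19.

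**Figure D2:**
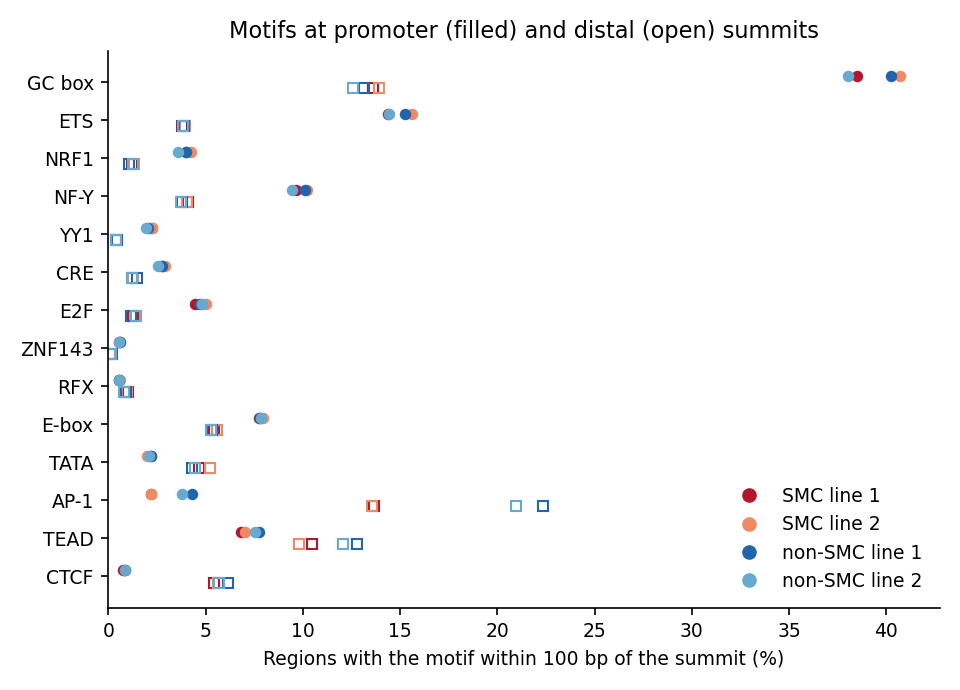
Share of regions with a motif within 100 bp of the summit for 14 motifs, with filled circles for the 8764 promoter regions, open squares for the 4842 distal regions and 1 symbol per library. GC box, ETS and NF-Y shares were higher at promoter summits in all 4 libraries, and AP-1, TEAD and CTCF shares were higher at distal summits.

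Other motifs separated the regions less or in the opposite direction. E2F sites (TTTCGCGC or TTTGGCGC or TTCCCGCC), read by the factors that RB restrains, were in 4.75% of promoter and 1.31% of distal regions. The cyclic AMP response element (TGACGTCA) was in 2.75% and 1.30%, the ZNF143 site (ACTACAATT) in 0.582% and 0.114%, and the E-box (CACGTG) in 7.83% and 5.40%. The CTCF consensus was in 0.830% of promoter and 5.73% of distal regions, the TEAD site (GGAATG) in 7.29% and 11.3%, the TATA box (TATAAA) in 2.1% and 4.66%, and the RFX site (GTTGCCATG) in 0.571% and 0.929%. With the same GC weighting the TATA difference of -2.56 points became 0.14 ± 0.286, in the other direction, and the E-box difference of 2.43 became 0.37 ± 0.317 (SD, n = 4). The E2F difference went from 3.44 to 2.22 points, that of the cyclic AMP response element from 1.46 to 0.79, of TEAD from -3.99 to -1.32, of CTCF from -4.9 to -3.29, of RFX from -0.36 to -0.25 and of AP-1 from -14.5 to -6.56, while ZNF143 stayed within its spread (0.47 to 0.48). AP-1 sites (TGACTCA or TGAGTCA) were in 2.19, 2.19, 4.3 and 3.8% of promoter regions, against 13.7, 13.5, 22.3 and 20.9% of distal regions. Both non-SMC libraries had larger AP-1 shares than both SMC libraries at promoter summits as well, though the regions were the same and only the position of the summit differed.

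Height within the promoter regions went with some of these motifs and not with others. NF-Y sites were in 2.74 ± 0.384% of the lowest decile of regions by height, 7.42 ± 0.466% of the fifth decile and 20.8 ± 1.28% of the highest decile (SD, n = 4 libraries). ETS sites were in 7.95 ± 0.450%, 15.8 ± 1.78% and 17.5 ± 1.08%, and GC boxes in 27.1 ± 3.03%, 40.4 ± 2.64% and 46.7 ± 3.82%. NRF1 sites were most frequent in the middle, with 1.88 ± 0.389%, 4.79 ± 1.09% and 2.99 ± 1.09%. The CTCF consensus was in 1.05 ± 0.450%, 1.06 ± 0.171% and 0.257 ± 0.0570%. NF-Y showed the same pattern among regions within 250 bp of a TSS, in 4.05 ± 0.555% of those in the lowest quartile of mean rank and 20.4 ± 0.196% of those in the highest, at a median GC content of 64.9% and 63.6%.

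**Figure D3:**
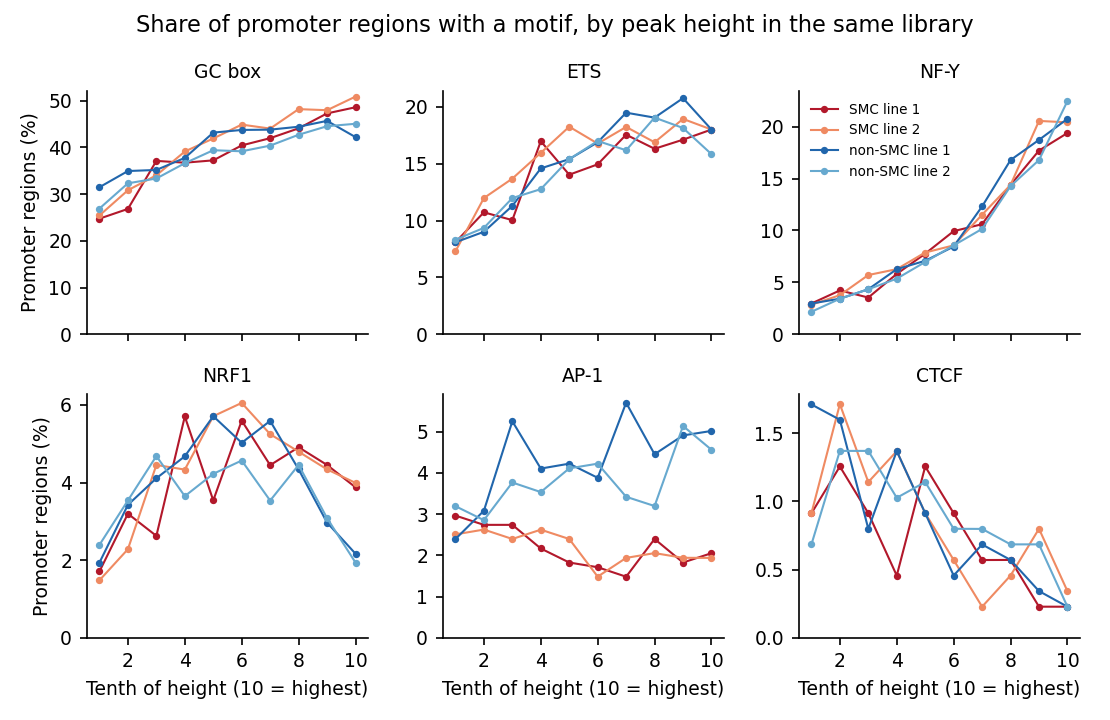
Share of promoter regions with a motif within 100 bp of the summit, by decile of height rank in the same library (x axis, 10 = highest), with 1 panel per motif and 1 line per library. NF-Y shares rose over the whole range to 20.8 ± 1.28% in the highest decile, and NRF1 shares were largest in the middle. AP-1 shares were larger in both non-SMC libraries than in both SMC libraries in every decile but the lowest.

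The sites also had preferred positions around the TSS. In the 6979 regions that covered their TSS, 1129 NF-Y sites had a median position of -64.5 bp and 86.3% lay upstream of the TSS. The 8404 GC boxes had a median of -40 bp, the 773 NRF1 sites -38.5 bp and the 2374 ETS sites -9.5 bp. YY1 sites were the exception, since their median was 29 bp downstream and only 27.2% of 394 lay upstream. The cyclic AMP response element was the most concentrated of the 14, with 24.9% of 345 sites in the 25 bp just upstream of the TSS. TATA boxes had a median of -175 bp in the searched span from 300 bp upstream to 200 bp downstream, with 12.5% of 712 in the bin farthest upstream. They also had a local maximum of 56 sites between -50 and -25 bp, where the neighbouring bins of 25 bp held 19 and 25.

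Genes with a promoter region in all 4 lists had GC-rich and CpG-rich starts. In the 1 kb around the TSS their median GC content was 59.3% and their ratio of observed to expected CpG 0.749, against 54.8% and 0.558 for all 21755 protein-coding genes. Genes with a promoter peak in both SMC lists alone (675 genes) had a ratio of 0.413, those with a peak in both non-SMC lists alone (538 genes) 0.262, and the 4024 genes without a peak in any list 0.144. In the window from 200 bp upstream to 100 bp downstream of the TSS, a GC box was in 49.9% of genes with a promoter region and 32.7% of all protein-coding genes, an ETS site in 20.3% and 11.4%, an NRF1 site in 5.96% and 3.44%, an NF-Y site in 10.9% and 8.06% and a YY1 site in 3.97% and 2.09%. A TATA box was in 5.46% and 11.6%. The share was 18.6% in genes with a peak in the non-SMC lists alone and 10.96% in the SMC lists alone. It was larger still, at 24.4%, in the genes without a peak in any list.

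Genes in head-to-head pairs were well covered. A pair was counted where a gene on the minus strand started within 1000 bp upstream of a gene on the plus strand, which took in 1489 genes. Of these, 1290 (86.6%) had a promoter region, against 40.2% of other genes. A region counted for every gene with a TSS within 3 kb of its midpoint, so a single region could cover both genes of a pair. The part of this rule in the difference was not tested. The 676 regions at such pairs had median height ranks of 63, 67.2, 61.9 and 63.5, where the other 8088 had 55.3, 56.1, 53.6 and 54.0. ETS sites were at 21.5 ± 1.81% of their summits and 14.4 ± 0.605% of the others (SD, n = 4), and NF-Y sites at 14.1 ± 0.632% and 9.49 ± 0.381%. Their midpoints were also nearer to a TSS, at a median of 84 against 188 bp. Over the chromosomes, the share of genes with a promoter region ran from 29.6% on X (281 of 948) to 52.2% on chromosome 8 (543 of 1040).

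Among the gene lists, the machinery used by every dividing cell was covered most fully. Of the nucleoporins, which build the nuclear pore, 21 of 22 had a promoter region and only Nup43 did not. Of the aminoacyl-tRNA synthetases, which charge tRNAs, 35 of 37 did. Of the general transcription factor genes taken by the symbols Taf and Gtf, 26 of 28 did. This list is named TFIID and TFIIH subunits and also holds Gtf2a1l. The DNA replication and E2F target list had 39 of 43, all but E2f2, E2f6, Pola2 and Pole4. For proteasome subunits the count was 40 of 48, for mitochondrial ribosomal proteins 63 of 78, for cytosolic ribosomal proteins 65 of 83, for translation initiation factors 37 of 46, for the respiratory chain 69 of 87 and for replication-dependent histones 53 of 67. In all, 21 of 27 lists lay above the 43.4% of all protein-coding genes.

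**Figure D4:**
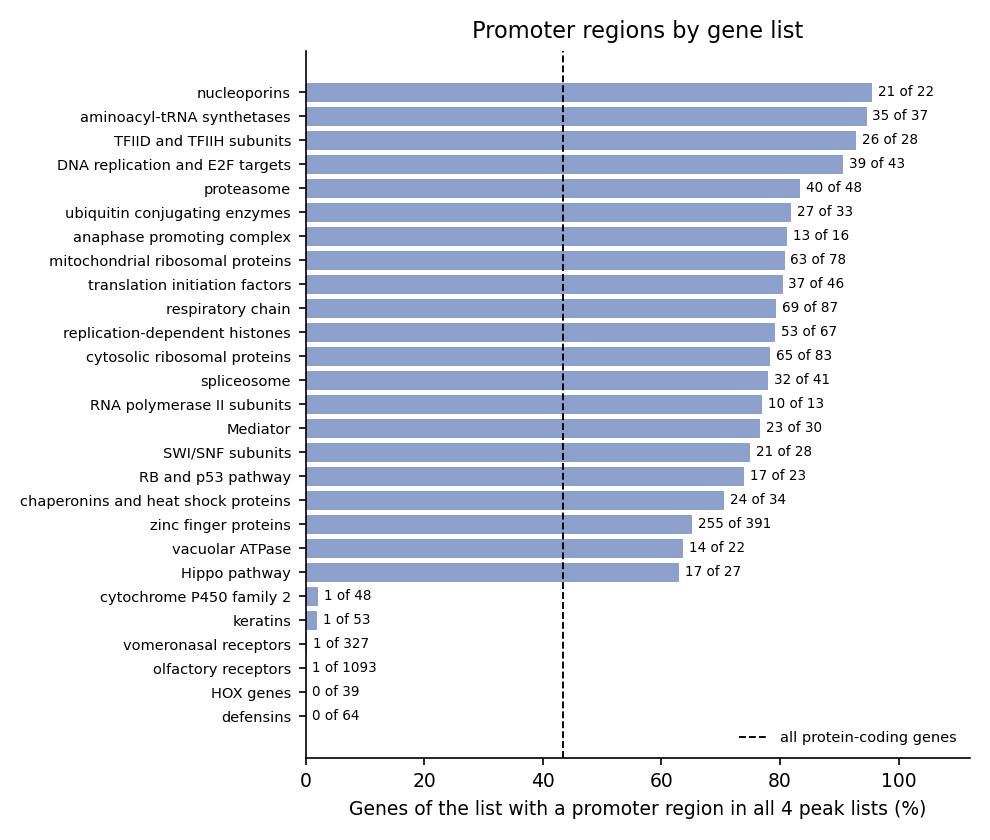
Share of the genes in 27 lists with a promoter region in all 4 peak lists, with the counts beside the bars and the 43.4% of all protein-coding genes as a dashed line. The bars of 21 lists lie above the line, and those of the HOX genes and of the tissue-restricted lists at or near 0.

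The lists chosen as tissue-restricted were nearly empty, and so was that of the HOX genes, which was not chosen as such. Of 1093 olfactory receptor genes 1 had a promoter region, of 327 vomeronasal receptors 1, of 53 keratins 1, of 48 genes of cytochrome P450 family 2 1, of 64 defensins 0 and of 39 HOX genes 0. The olfactory receptor was Olfr223, whose region had its midpoint at -2321 bp, with ranks of 10.2, 15.9, 4.86 and 1.04. The vomeronasal receptor Vmn1r4 shared its region with Nt5c3, and the keratin was Krt8, a keratin of simple epithelia, with ranks of 15.6, 11.4, 54.5 and 17.9. Of the 39 HOX genes, 1 had a promoter peak in all 4 lists without a common region.

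The covered lists differed in height. As the median over regions of the mean rank in the 4 libraries, the DNA replication and E2F target list stood at 73.0, chaperonins and heat shock proteins at 68.4, the spliceosome at 67.3 and aminoacyl-tRNA synthetases at 65.3, against 56.1 for all genes with a promoter region. Lower were the cytosolic ribosomal proteins at 48.9, RNA polymerase II subunits at 41.4 and SWI/SNF subunits at 37.7. Mcm3, a subunit of the replicative helicase, led its list with fold enrichments of 12.5, 15.4, 18.7 and 15.3, and Prim1, the catalytic primase subunit, was lowest in it with 5.25, 6.26, 6.03 and 3.66. Rpl15 was the highest cytosolic ribosomal protein, in a region shared with Nkiras1, and Rps14 the lowest with 5.02, 4.85, 2.44 and 3.44. These medians describe lists of 10 to 65 covered genes and were not tested.

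All 10 reference genes had a promoter region, though not among the tallest. Hprt, of purine salvage, had fold enrichments of 6.48, 7.88, 9.77 and 8.76 and ranks of 63.3 to 75.7. Actb, which encodes cytoplasmic actin, had only 3.77, 4.16, 5.43 and 4.57 and ranks of 17.6 to 27.1. Its local background was 4.79, 3.26, 5.41 and 6.31 times the lowest background of the same library, and ranked by pileup instead it stood at 60.4, 63.5, 75.7 and 80.5. Fold enrichment therefore placed Actb lower than the pileup did. Gapdh had ranks of 54.3, 37.5, 60 and 67.3 by fold enrichment and 78.2, 70.1, 95.2 and 91.1 by pileup.

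Of the factors that read the motifs above, 25 of 30 had a promoter region. Those of E2f3 stood at ranks of 97.2, 93.8, 90.2 and 98.8, of Gabpa, which shares its region with Atp5j, at 95.3, 94.9, 91.5 and 93.8, of Sp1 at 94.9, 85.0, 88.5 and 95.7 and of Zfp143, the mouse gene for ZNF143, at 92.3, 94.3, 77.0 and 94.6. Nrf1 (7.65, 28.4, 23 and 11.4) and Ctcf (22.1, 36, 3.94 and 16.2) stood low. The 5 without a region were Nfyc, E2f2, E2f6, Rfx4 and Rfx6, and Rfx4 had no promoter peak in any list. A peak at the gene of a factor says nothing about how much of it a line makes.

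Of the 22 genes of interest to the study, 10 had a promoter region. Smarca4 (Brg1), the ATPase of the SWI/SNF remodeling complex, had a low one, with fold enrichments of 3.06, 3.22, 2.34 and 3.05. These were below the lower quartiles of the promoter regions (4.46, 4.49, 5.72 and 4.84). Its lowest rank, 0.17, is that of a single library. Fold enrichment can also place a region lower than its pileup does, as at Actb. Arid1a, a DNA-binding subunit of the complex, had height ranks of 40.5, 55.7, 24.5 and 30.2, higher in both SMC lines but short of the 20-point margin used below, and Arid2 had 51, 33, 14 and 36.4, with SMC and non-SMC lines that overlapped. Rb1 had ranks of 44.1, 9.89, 35.2 and 13.1, again overlapping, and Trp53, in a region shared with Wrap53, 6.37, 6.49, 14.9 and 32.1. A promoter peak does not report on the loss of the floxed exons, so these values check nothing about the deletions. Tead3 and Tead4, which encode DNA-binding partners of YAP and TAZ, had lowest ranks of 6.6 and 7.99. Yap1 and Wwtr1 (Taz) had promoter peaks in all lists but that of SMC line 1. That library had the lowest median pileup at the promoter regions (10), and the part of depth in the missing peaks was not tested.

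Mycl was the member of this group with the most unequal reads. Its promoter region had fold enrichments of 5.38, 3.35, 4.13 and 4.62 but pileups of 256, 329, 19 and 8, since the local background was 103 and 63.4 times the lowest background in the SMC lines and 2.58 and 1.48 times in the non-SMC lines. Raised background of at least 5 times was found at 143, 44, 331 and 139 promoter regions, and 433 had it in at least 1 library.

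Markers of the sorted cells and of other lung cells were mostly absent from the promoter regions. Of 8 neuroendocrine markers, Ncam1, Syp and Uchl1 had one, and promoter peaks were found for 8, 8, 5 and 3 of the 8. The 8 include Epcam, which the paper stained beside NCAM and CD44 in flow cytometry and does not call a neuroendocrine marker. Chga and Epcam had a promoter peak in both SMC lists and in neither non-SMC list. Of 5 mesenchymal markers Vim had a region, with height ranks of 12.1, 23.2, 49.2 and 61.3, higher in both non-SMC lines, and peaks were found for 3, 4, 5 and 5. None of the 5 leukocyte markers and none of the 4 alveolar and airway markers had a region, with promoter peaks at 0, 2, 1 and 2 leukocyte and 3, 2, 1 and 2 alveolar and airway markers, and of 3 endothelial markers Kdr had one. The gene encoding the sorting antigen CD44, Cd44, had a promoter peak in SMC line 2 and both non-SMC lines and none in SMC line 1. The median pileup was lowest in SMC line 1, and the part of depth in this was not tested.

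Heights of the promoter regions were ordered alike in the 4 libraries, and more so than those of distal regions. Across the 8764 regions, Spearman's rho of the height ranks was 0.773 between the SMC lines, 0.785 between the non-SMC lines and 0.635 to 0.699 between an SMC and a non-SMC line. Across the 4842 distal regions it was 0.621, 0.682 and 0.309 to 0.334. These are correlations over regions that share a library, and regions are not independent replicates. The median rank of the promoter regions was 56.5 ± 0.626 in the SMC lines and 54.6 ± 0.486 in the non-SMC lines (SD, n = 2 each), a difference of 1.93 points (exact permutation test, p = 0.33, the smallest it can give). Its sign reversed, to between -0.95 and -0.74 points, when a non-SMC line was left out and regions with a peak in the other 3 lists were used. It was 0.20 points with regions ranked by pileup and 0.07 points with peaks at a -log10 q of 5 or more (exact permutation test, p = 1 for both).

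Few promoter regions changed order between the types. A region was counted as higher in 1 type where the lower rank of its 2 lines was at least 20 points above the higher rank of the other type. Both SMC lines were higher at 435 promoter regions (4.96%), where 6.22% of all regions with a peak in every list passed the same margin, and both non-SMC lines were higher at 330 (3.77%), where 6.56% of all regions passed. Distal regions passed in 8.49% and 11.6%. Without regions of raised local background, 416 (4.99%) and 321 (3.85%) of 8331 promoter regions passed. The promoter regions thus lay below the background in both directions, and farther below it toward the non-SMC lines. With 1 library left out the margin rests on 3 libraries, and the counts rose. For the SMC lines they ran from 775 (7.95%, without non-SMC line 2) to 1298 (13.1%, without SMC line 1). For the non-SMC lines they ran from 559 (5.63%, without SMC line 1) to 861 (9.42%, without non-SMC line 1). These percentages are of 9141 to 9924 promoter regions, and the matching shares over all regions are not given. Without non-SMC line 2 the non-SMC share (8.41%) was the larger.

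**Figure D5:**
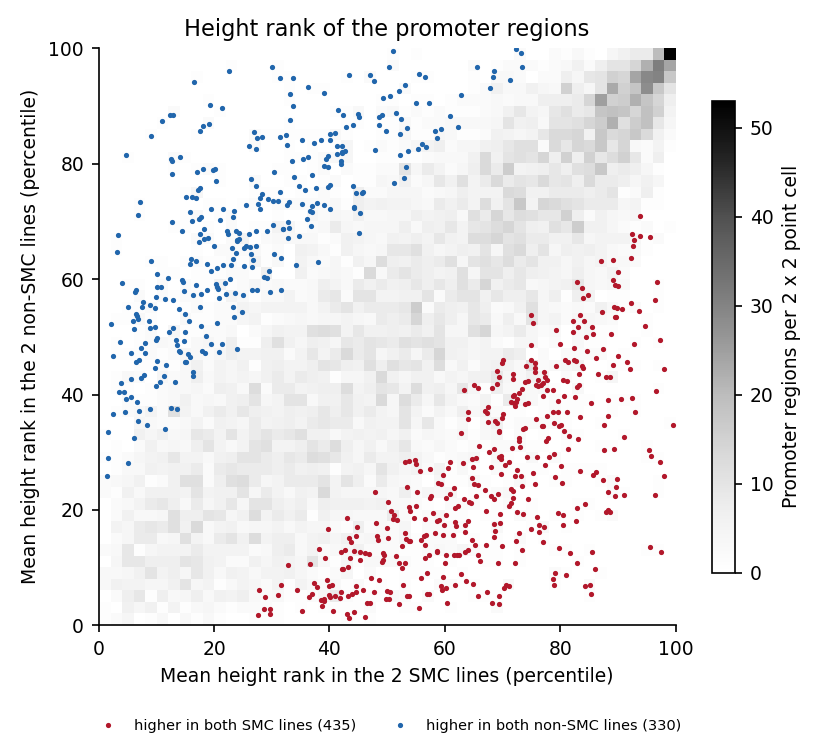
Mean height rank of the 8764 promoter regions in the 2 SMC lines (x axis) and the 2 non-SMC lines (y axis), in percentiles, with the number of regions per cell in grey. Red points are the 435 regions higher in both SMC lines and blue points the 330 higher in both non-SMC lines by at least 20 points, which were chosen by these ranks.

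The 10 promoter regions with the largest margin toward the SMC lines belonged to genes of varied function, and no theme was tested. Rims2, a scaffold of the presynaptic release site, had fold enrichments of 7.56 and 9.22 in the SMC lines and 3.28 and 3.33 in the non-SMC lines. Hook1, which links cargo to microtubules, had 11.9 and 17.9 against 5.63 and 4.27. Arfgef3, an ARF exchange factor homolog, had 7.96 and 10.8 against 4.02 and 2.44. In rank, the SMC and non-SMC lines did not overlap at any of these, by the way they were chosen. Tfcp2l1, a transcription factor of the grainyhead group, had 8.48 and 10.4 against 2.70 and 3.45, and Clca3b, at chr3:144849164-144850059, had 13 and 13.5 against 4.02 and 3.66, from pileups of 26 and 65 against 9 and 5. The others were Fam151b, Tmem246, Sowahb, Tspan13 and A830018L16Rik.

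The 10 with the largest margin toward the non-SMC lines were likewise of varied function, and no theme was tested. Il6, the cytokine interleukin 6, had fold enrichments of 3.43 and 3.15 in the SMC lines and 14.2 and 9.58 in the non-SMC lines, at chr5:30012602-30013570 and with pileups of 4 and 7 against 54 and 21. F2r, the thrombin receptor gene, had 3.45 and 3.75 against 13.3 and 14.7. Col5a3, a chain of type V collagen, had 3.47 and 3.25 against 12.1 and 8.83, in a region 2284 bp downstream of its TSS. With pileups of 4 and 7, the SMC values of Il6 rest on few reads. The others were Uox, Gpat3, Lrtm2, Coro6, Gm9821, Dlec1 and Hist2h3c2, and 5 of the 10 had their midpoint over 2000 bp from the TSS, at Uox, Lrtm2, Coro6, Gm9821 and Col5a3.

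Regions higher in the non-SMC lines lay farther from the TSS than the rest. Of the 330, 17.6% had their midpoint over 1 kb away, against 9.89% of the 435 higher in the SMC lines and 7.78% of the other 7999. Within 100 bp of the TSS 3.11% of regions were higher in the non-SMC lines, and the share was 4.84% between 500 and 1000 bp, 7.30% between 1000 and 2000 bp and 9.72% (21 of 216) between 2000 and 3000 bp. The share higher in the SMC lines was 4.66, 5.29, 6.51 and 4.63% (10 of 216) in the same bins. The summits of both groups were also less well aligned, over a median of 164 bp for the SMC group and 173 bp for the non-SMC group, against 124 bp for the others.

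The letters at their summits differed too, and letters were not used to choose them. AP-1 sites were within 100 bp of the summit in 9.09 and 8.18% of the 330 regions for the SMC lines and in 22.4 and 19.7% for the non-SMC lines, against 2.19 to 4.3% of all promoter regions. In the 435 regions higher in the SMC lines the share was 1.61 to 2.53% over the 4 libraries. The 229 of the 330 regions within 500 bp of a TSS had 8.3 and 6.55% at the SMC summits and 17 and 14.8% at the non-SMC summits. NRF1 sites were in 5.75 ± 0.920% of the regions higher in the SMC lines and 0.985 ± 0.672% of those higher in the non-SMC lines (SD, n = 4), from 27, 27, 27 and 19 regions against 6, 4, 2 and 1. ETS sites were fewer in the SMC group, in 8.68 ± 1.18% against 13.9 ± 0.716%, where all promoter regions had 14.9%. GC boxes were in 40.7 ± 1.63% of the SMC group and 29.6 ± 2.15% of the non-SMC group (SD, n = 4), where all promoter regions had 39.4%. The shares of these groups were not weighted for GC content, and its part in them was not tested.

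Of the 10 regions with the largest non-SMC margin, those of F2r, Uox and Gpat3 had an AP-1 site within 100 bp of both non-SMC summits and of neither SMC summit. The first pair is shown as 120 bases centred between the non-SMC summits, outside annotated exons, on the strand of the gene, 5′ to 3′, with the AP-1 site in capitals.
F2r, chr13:95618586-95618705, minus strand: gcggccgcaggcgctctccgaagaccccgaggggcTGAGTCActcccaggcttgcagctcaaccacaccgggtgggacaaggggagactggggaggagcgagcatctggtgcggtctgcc
Uox, chr3:146567948-146568067, plus strand: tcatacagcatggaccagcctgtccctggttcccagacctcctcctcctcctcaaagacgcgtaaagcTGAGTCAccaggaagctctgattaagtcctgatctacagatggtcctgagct

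These windows were chosen after their values were seen. The site of F2r lay at -180 bp and that of Uox at -2407 bp from the TSS. Coro6 had an AP-1 site near both SMC summits and 1 non-SMC summit, and Il6, Col5a3, Lrtm2, Dlec1, Gm9821 and Hist2h3c2 had none in these windows. A match to these letters is a description and does not show that a factor is bound.

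Within the gene lists, the regions past the margin were counted beside the 6.22% and 6.56% of all regions with a peak in every list and the 4.96% and 3.77% of promoter regions, and with counts this small no list is set apart from these shares. The translation initiation factors, RNA polymerase II subunits, TFIID and TFIIH subunits, spliceosome and nucleoporins had none in either direction. Of the 39 covered replication genes Cdt1 and Rfc5 were higher in the non-SMC lines and none in the SMC lines. The vacuolar ATPase list had 2 of 14, Atp6v1a and Atp6v1b2, higher in the SMC lines. Zinc finger genes, the list with the most promoter regions, had 8 regions higher in the SMC lines and 5 in the non-SMC lines among the 250 regions of 255 covered genes. In the SWI/SNF list Dpf2 alone passed, toward the non-SMC lines.

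A group of 1258 genes had a promoter peak in all 4 lists within 3 kb of the TSS but no promoter region, since the peaks did not merge into 1 region with its midpoint inside the limit. They were 11.8% of the 10693 genes with a promoter peak in every list. Their starts were less rich in sites, with a GC box in 39.7%, an ETS site in 8.66% and an observed to expected CpG ratio of 0.625. Sox11 and Tead2 were among them.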

How the data were processed

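ATAC-seq had been performed on 2 SMC and 2 non-SMC lines (TruePrep kit, 150 bp paired-end Illumina reads). The authors mapped reads to mm10 with Bowtie2 2.3.4, removed duplicates and called peaks per library, not pooled, with MACS2 2.1.1 (per the labels and methods; calling settings are not given in the sources used here). The values the authors deposited for each peak were a fold enrichment (a ratio to local background), the -log10 of p and of q, and a score derived from the p-value, which was not used. Peaks off chromosomes 1 to 19 and X (72 to 89 per library) were left out.

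TSSs were gene 5′ ends of GENCODE M21, and letters came from GRCm38. Lists were merged at 1 shared base. Pileup and background were recovered from fold enrichment and Poisson p for over 99.9% of peaks. Height ranks, motif shares and counts were computed per library with numpy 2.4.6, pandas 2.3.3 and scipy 1.17.1 under Python 3.11.15, using exact permutation tests over libraries. The steps were tested on simulated data, where 100% of 20000 pileups and of the planted regions were recovered, and merging was checked against bedtools 2.31.1. The members, motifs and gene lists were chosen with earlier results of these data known. The text names the 10 tallest regions, the 10 with the largest margin in each direction, those nearest the 3 kb limit, the 5 widest, the extremes of each gene list, reference genes, and genes and motif factors of interest. Alternatives tried were a q limit (-log10 q of 5 or more), equal list lengths, 1 kb, every transcript TSS, autosomes, aligned summits, each library left out, other height measures, margins and windows, and GC weighting. The labels call SMC and non-SMC lines paired without saying what a shared number stands for. The correlation between the deviations of same-numbered lines was -0.03 over the promoter regions. This single value cannot settle whether the lines are paired, since depth also differed in opposite directions in the same-numbered pairs. The lines were treated as unpaired, with a replicate block as an alternative. A few items are not reported here.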

Additional observations from a re-analysis of the deposited data

Results flagged for a closer look

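Measures of the promoter regions that differed between SMC and non-SMC in opposite directions in the 2 line pairs are given here. With 1 library per line these differences were not tested. The share of regions whose highest peak had a -log10 q of at least 5 was 35.2 percentage points lower in SMC line 1 than in non-SMC line 1 (a difference of -35.2) and 7.47 points higher in SMC line 2 than in non-SMC line 2. The median summed peak width differed by -242 bp in the first pair and by 14.5 bp in the second. The median distance of the summits from the TSS differed by 9 bp and by -15 bp. The share of all peaks of a library that lay inside promoter regions differed by 3.33 and -1.07 percentage points, in lists of 91046, 115827, 153950 and 128705 peaks for SMC line 1, non-SMC line 1, SMC line 2 and non-SMC line 2. The median pileup at the promoter regions was 10 and 33 in the first pair and 22 and 14 in the second, so depth ran in the same opposite directions as the first pair of measures, and its part in them was not tested.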

How the results depend on the processing

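Of 136 values under alternatives, 108 were labelled the same, 26 moved and 2 reversed, and the causes were not tested. A tested difference was the same where it kept its sign, and a count or distance where its size stayed near the main value. No p-value entered these labels. With peaks at a -log10 q of 5 or more, 3873 promoter regions near 4568 genes were left. Of these, 200 (5.16%) were higher in the SMC lines and 183 (4.73%) in the non-SMC lines. Percentiles over the full lists gave 202 and 106, and aligned summits gave 207 for the non-SMC lines. A margin of 10 points gave 999 (11.4%) and 764 (8.72%), where 12.3% and 12.1% of all regions with a peak in every list passed. With a margin of 30 points there were 190 (2.17%) and 142 (1.62%), where 3.22% and 3.73% of all regions passed. For the other settings here the matching shares over all regions are not given. Leaving out 1 library gave 775 to 1298 (7.95 to 13.1%) and 559 to 861 (5.63 to 9.42%). The SMC minus non-SMC height rank ran from -0.95 to 7.28 with 1 library left out, reversing without either non-SMC line, and was 0.20 points by pileup and 0.07 points at the q limit. The core motif difference was 15.3 points under GC weighting. The summit distance from the TSS was 92 bp at the q limit, 102.25 bp within 1 kb, 92.25 bp with every transcript and 95 bp for aligned summits, and 122 to 128 bp with 1 library left out. Of 70 values for single motifs, 49 moved and 1 reversed, TATA, at 0.14 points under GC weighting. With a replicate block, the same-numbered lines were taken as paired. Then 608 promoter regions (6.94%) were higher in the SMC lines and 466 (5.32%) in the non-SMC lines. This rule compares each line only with its same-numbered line and is looser than the main margin. These shares therefore cannot be set beside the shares of all regions that passed the main margin. The height rank difference stayed at 1.93 points and the difference at the q limit at -13.9 points. SMC line 1 had the fewest reads at the promoter regions (median pileup 10), which limits how firmly its single peaks are called.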
